A study of Mus musculus with 14 samples.

Results

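The genes of glucose uptake and glycolysis in the irradiated mouse heart were taken as 42 named genes. They cover the glucose transporters, the enzymes of glycolysis, the PFK2 regulators, lactate handling, pyruvate entry into mitochondria, the pentose phosphate pathway, glycogen and the transcription factor Hif1a. Their symbols matched 43 of the 54532 rows of the count table, since Aldoa had 2 rows. Of these, 42 rows passed the filter on low counts, 1 for each symbol, among 16034 rows tested in all. The other Aldoa row (ENSMUSG00000114515) had at most 0.949 CPM in any library and was not tested.

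The hearts came from male wild-type C57BL/6J mice, and 1 RNA-sequencing library was made per mouse from heart tissue; which part of the heart was taken is not given in the sources used here. The irradiated mice had received 30 Gy of 60Co γ-rays to the front of the chest under anesthesia at 8 weeks of age, and their hearts were taken 1 day (IRR_1d, n = 3) or 6 weeks (IRR_6w, n = 4) later. The hearts of unirradiated mice at the same times were the controls (Control_1d, n = 3, and Control_6w, n = 4). The tissue holds many cell types, so fewer cells of a type and less RNA per cell cannot be told apart in these data.

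Glucose enters cells through transporters of the Slc2a family, of which Slc2a4 (GLUT4) is the insulin-responsive form of heart muscle and Slc2a1 (GLUT1) the widely expressed basal form. Glycolysis splits glucose to pyruvate, which either enters mitochondria or becomes lactate. The adult heart draws most of its energy from fatty acids, and uses the muscle forms of several glycolytic enzymes.

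Levels are given as CPM, the counts of a gene relative to the library size after scaling by the trimmed mean of M values (TMM). Levels of different genes are compared only as CPM per kilobase of the deposited gene length (FPKM). Fold changes are log2 values with their standard errors (SE) from the quasi-likelihood test of edgeR. To count as a differentially expressed gene (DEG), a row needed a p under 0.05 after Benjamini-Hochberg adjustment over all rows tested, and a level more than 2 times or less than 0.5 times that of the group compared.

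The libraries held 13336746 to 16837265 counts, and several stood apart. Cardiomyocyte genes were counted in all 14, and the 7 cardiomyocyte markers summed to between 13228 and 39425 CPM in 12 libraries, but to 4570 in Control_6w replicate 3 and 8429 in IRR_6w replicate 1. Ucp1, the defining gene of brown fat, was at 222 CPM in IRR_1d replicate 3, 483 in Control_6w replicate 3 and 686 in IRR_6w replicate 1, and at 0 in the other 11. The 4 white fat markers summed to 305, 363 and 898 CPM in the same 3 libraries and to at most 44.9 elsewhere. Control_6w replicate 3 also held thymus markers (2686 CPM in sum) and IRR_6w replicate 1 lung markers (420 CPM in sum). The 4 atrial markers summed to 9.87 to 2818 CPM. The 5 testis germ cell markers summed to 37.0, 31.9 and 37.5 CPM in Control_6w replicates 1 to 3 and to at most 0.241 CPM in the other 11 libraries. Separately, among genes with a level of 2 to 5 CPM, the share at 0 counts was 30.7% in Control_1d replicate 1, 21.6% in IRR_6w replicate 3 and 8.62% in IRR_6w replicate 4, against at most 1.98% in the other 11.

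**Figure D1:**
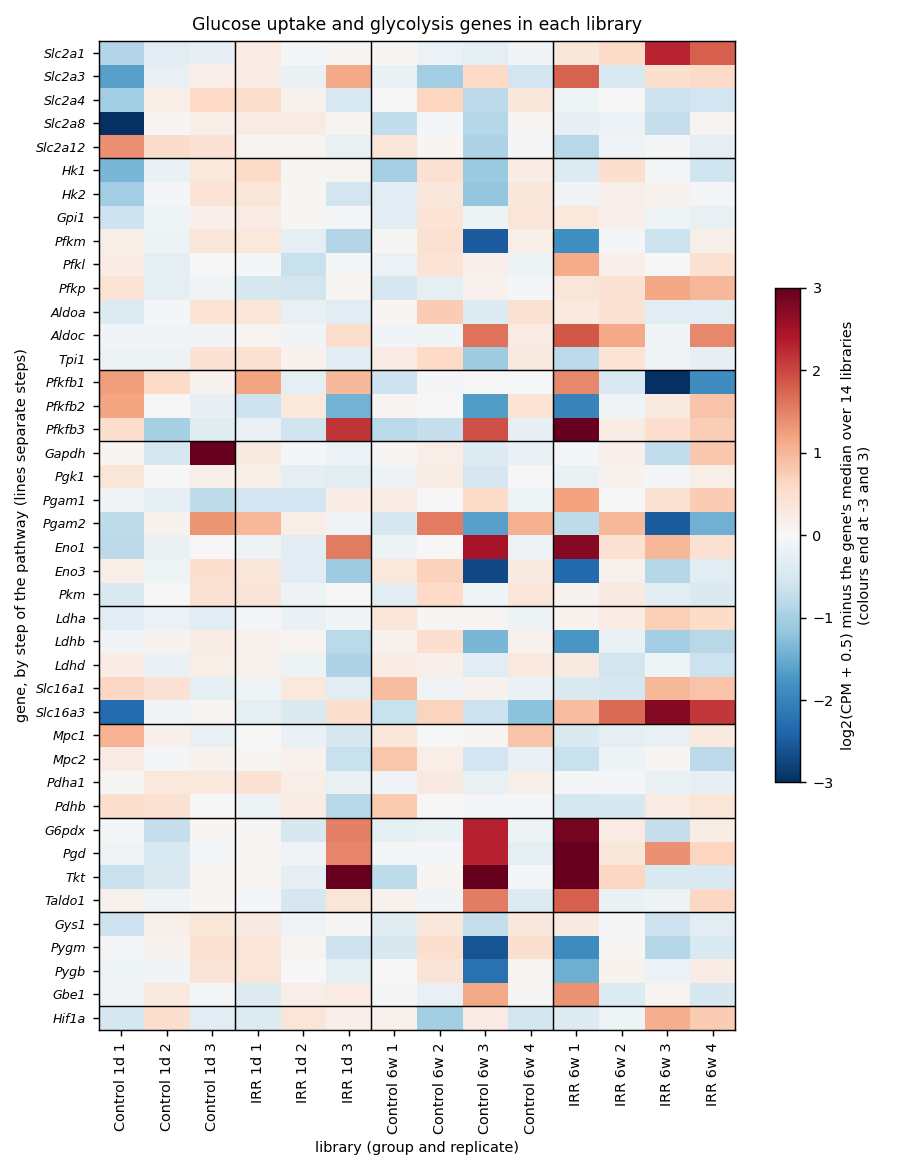
Each row is 1 of the 42 tested genes, each column 1 of the 14 libraries, and the colour is log2(CPM + 0.5) minus the median of the gene over all libraries. Tkt, G6pdx, Pgd, Eno1 and Pfkfb3 are highest in the 3 libraries with Ucp1, with Tkt at 298 to 1181 CPM there, and Slc2a1 and Slc16a3 are highest in IRR_6w replicates 3 and 4.

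The first question was how strongly a heart expresses each step. Among the transporters, Slc2a4 had the highest mean FPKM in every group, at 67.4 ± 33.7 (SD, n = 3) in Control_1d, 69.7 ± 22.7 (n = 3) in IRR_1d, 71.0 ± 27.1 (n = 4) in Control_6w and 51.9 ± 11.3 (n = 4) in IRR_6w. Slc2a1 had a mean FPKM of 2.52 ± 0.587, 3.80 ± 0.380, 3.25 ± 0.319 and 10.1 ± 6.29 in the same order. Slc2a4 was above Slc2a1 in each of the 14 libraries. The means of Slc2a8, an intracellular transporter, ran from 3.71 to 5.67 FPKM over the groups, those of Slc2a12, a further transporter of insulin-sensitive tissue, from 1.52 to 3.49, and those of Slc2a3, the neuronal and leukocyte form, from 0.509 to 1.24.

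The muscle or heart form was the higher one at most steps, by differing amounts. In Control_1d, Ldhb, the heart form of lactate dehydrogenase, reached 638 ± 65.4 FPKM (SD, n = 3), and Eno3, the muscle enolase, 481 ± 105. Aldoa, the muscle aldolase, was at 394 ± 111, Pygm, the muscle glycogen phosphorylase, at 232 ± 40.5, Pgam2, the muscle phosphoglycerate mutase, at 221 ± 159 and Pfkm, the muscle phosphofructokinase, at 180 ± 31.8. The SD of Pgam2 is near its mean, so its place in this order is not distinguishable from its neighbours. Their counterparts were lower, with Eno1 at 22.5 ± 5.94, Pgam1 at 28.8 ± 6.81, Pfkl at 11.7 ± 2.02 and Pfkp at 4.43 ± 1.21 FPKM in the same libraries. The gap was smaller for Ldha, at 150 ± 8.58, and for Pygb, the brain phosphorylase, at 125 ± 26.0, with Pygb to Pygm ratios of 0.512 to 0.559. Hk2, the insulin-responsive hexokinase that commits glucose to the cell, was above Hk1 in all 14 libraries by the deposited lengths, with Hk1 to Hk2 ratios of 0.240 to 0.585. With the longest coding transcript of each gene as the length, the ratios were 0.441 to 1.08 and Hk2 was higher in 13 of the 14. The same lengths raised the Pfkp to Pfkm ratio to between 0.0430 and 0.463, still below 1 in all 14, and in Control_1d the muscle or heart form remained the higher in each pair above. Aldoc, the brain aldolase, had at most 25 counts in a library and 0 in 7 of the 14, so no fold change is given for it.

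Gapdh, which is usually among the most abundant transcripts, was counted at only 2.79 to 9.20 CPM in 13 libraries and at 118 CPM (1532 counts) in Control_1d replicate 3. Its transcript is 88.0% covered by stretches of at least 150 bases that are at least 98% identical to another gene, and 41 such genes are in the table, with 337 to 1280 counts in sum per library. How reads that fit several genes were counted is not given in the sources used here, so this row cannot be read as the level of Gapdh. Near-identical copies also cover 85.6% of the transcript of Eno1, 76.8% of Ldhb, 68.8% of Pgk1, 65.5% of Pkm and 43.1% of Pgam1, whose levels are uncertain for the same reason. The shares were 36.3% for Gpi1, 27.2% for Mpc1, 25.6% for Pfkfb2, 18.0% for Pfkp, 14.96% for Pdha1, 9.77% for Slc2a12, 7.89% for Gys1 and 7.30% for Hif1a. Some members also share exonic bases with an overlapping gene: Ldhd 42.2% with Znrf1, Pfkfb2 19.5% with Gm29427 and Yod1, and Pdha1 16.1% with Map3k15. The shares were 15.3% for Pkm, 13.6% for G6pdx, 11.5% for Gpi1 and 10.7% for Pfkm. How reads in such bases were counted is not given in the sources used here. Mpc1 also shares 23.1% of its exonic bases with 4930506C21Rik and Slc2a12 shares 9.61% with Tbpl1. Overlapping genes were not left out of the search for copies, so where a member has an overlapping gene, a match may be that gene itself. For Slc2a12, the match and the overlap with Tbpl1 are equal in length. In raw counts, the matching genes had 1423 to 4809 per library against 667 to 2166 for Mpc1, and 201 to 732 against 70 to 344 for Slc2a12. How shared reads were counted is not given, so these levels are uncertain too. Slc2a1 and Slc16a3 have no such copy.

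At 1 day after irradiation, the comparison of IRR_1d with Control_1d asks for early changes. By edgeR, 0 of the 42 genes were DEGs, where 0.0249% of all rows tested were. DESeq2, run as an alternative, called 0 of the 37 members to which it gave an adjusted p, against 0.205% of all rows, and limma 0 of 42, against 0%. At an unadjusted p under 0.05, 0 members were higher and 1 (Gapdh) was lower, against 1.94% and 0.96% of all rows, and 1 (Gapdh) also passed the fold limits, as did 2.23% of all rows. A count of 0 does not show that levels did not differ, here or in the comparisons that follow. Of the 42 members, 21 had a positive log2 fold change, against 55.1% of all rows, and their median was 0.01 against 0.06 for all rows.

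Slc2a1 and Slc2a12 were the members whose groups did not overlap at 1 day, 1 in each direction, where 6.52% of all rows did so upwards and 4.14% downwards. Slc2a1 was at 6.51, 9.65 and 10.4 CPM in Control_1d and at 14.7, 12.1 and 13.2 CPM in IRR_1d. All 3 irradiated hearts lay above all 3 controls, but the log2 fold change of 0.59 (SE 0.44) had an edgeR adjusted p of 1. Slc2a12 was at 21.5, 12.0 and 10.8 CPM in Control_1d and at 8.49, 8.40 and 6.73 CPM in IRR_1d. Its log2 fold change was -0.91 (SE 0.44) with an edgeR adjusted p of 1, and the highest control was the library with the largest share of genes at 0 counts, without which the value was -0.53, as it was without this and the 2 such IRR_6w libraries together. Without the 3 Ucp1 libraries, 2 members were separated upwards (Slc2a1 and Slc2a8) and 2 downwards (Slc2a12 and Pfkp), against 9.82% and 6.46% of all rows. The 7 endothelial markers also separated these groups, with sums of 1585 to 2093 CPM in Control_1d and 1298 to 1430 CPM in IRR_1d, negative fold changes for 5 of the 7 and 0 DEGs, and their part in the values of Slc2a1 and Slc2a12 was not tested.

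Of the remaining members with the smallest p at 1 day, Mpc1, a subunit of the mitochondrial pyruvate carrier, had a log2 fold change of -0.64 (SE 0.35) with overlapping groups. Pdhb, the β subunit of the pyruvate dehydrogenase E1 enzyme, was at -0.52 (SE 0.37), Pfkfb2, the heart PFK2 enzyme that sets the phosphofructokinase activator fructose 2,6-bisphosphate, at -0.87 (SE 0.67), and Pgk1, an enzyme of the lower pathway, at -0.32 (SE 0.26). Slc2a3 was at 0.95 (SE 0.73). In Control_1d replicates 1 to 3, Mpc1 was at 136, 72.5 and 55.6 CPM and Pfkfb2 at 91.5, 40.2 and 34.1 CPM. The highest in both was replicate 1, the library with the largest share of genes at 0 counts. All 4 genes of pyruvate entry (Mpc1, Mpc2, Pdha1 and Pdhb) had negative values, from -0.64 to -0.05, and none passed the test (edgeR adjusted p = 1).

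The highest of these values was that of Tkt, the transketolase of the pentose phosphate pathway, at 2.43 (SE 1.75), and it rested on 1 library. Tkt was at 16.9, 19.9 and 28.2 CPM in Control_1d and at 28.2, 22.3 and 298 CPM in IRR_1d. The highest value was in IRR_1d replicate 3, the library with Ucp1, and without the 3 Ucp1 libraries the log2 fold change was 0.22. Gapdh had the lowest value, -3.04 (SE 0.99, edgeR adjusted p = 1), and it turned to 0.29 without Control_1d replicate 3.

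**Figure D2:**
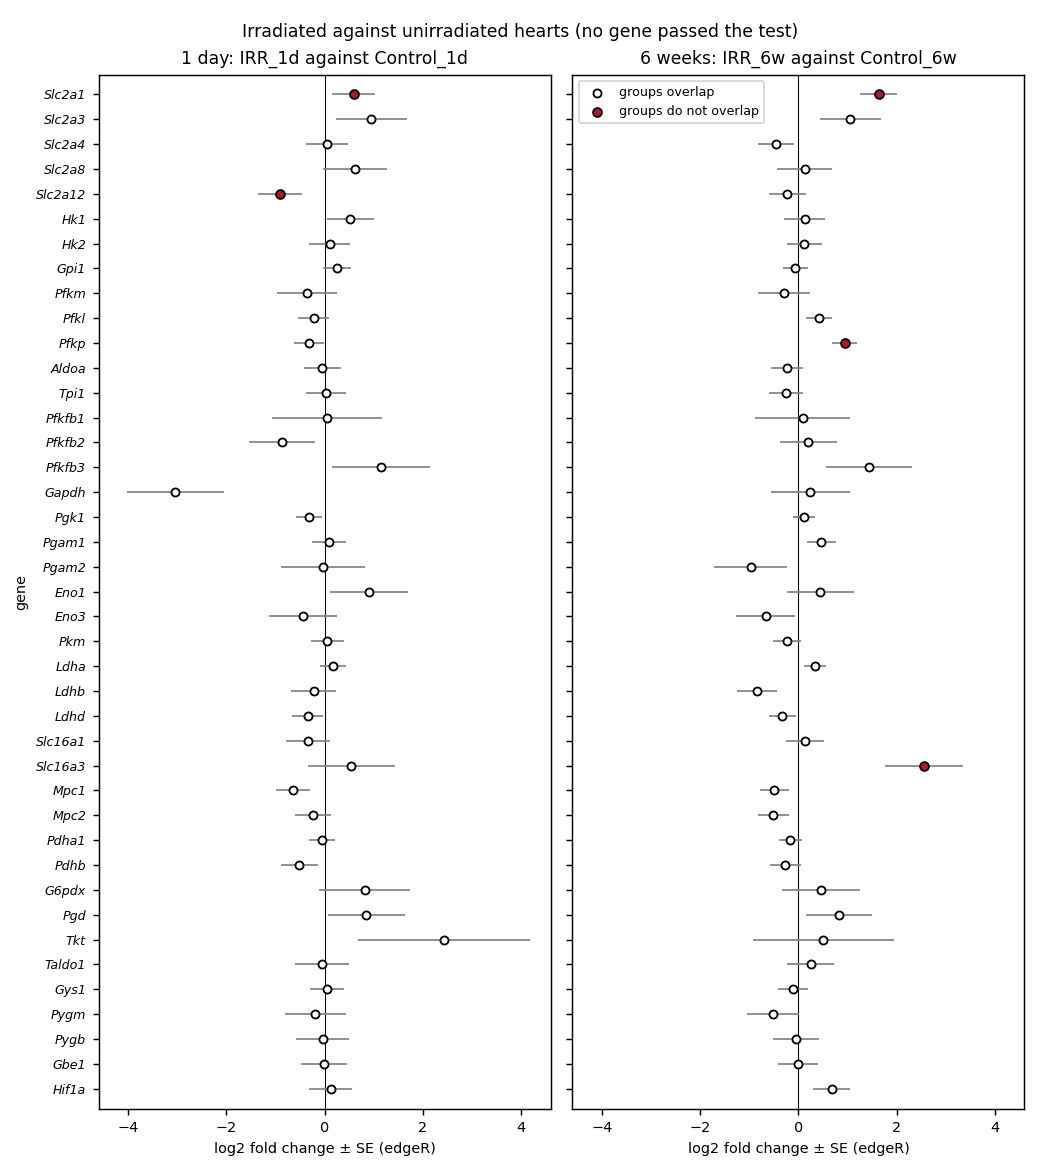
Points are log2 fold changes with SE of the members other than Aldoc for irradiated against unirradiated hearts at 1 day (left) and 6 weeks (right), and filled points mark members whose groups did not overlap. The filled points are Slc2a1 (0.59) and Slc2a12 (-0.91) at 1 day, and Slc2a1 (1.63), Pfkp (0.94) and Slc16a3 (2.56) at 6 weeks.

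At 6 weeks, edgeR again called 0 of the 42 members as DEGs in IRR_6w against Control_6w, where 0.256% of all rows were called, 0.237% as higher and 0.0187% as lower. At an unadjusted p under 0.05, 3 members were higher and 0 lower, against 5.43% and 3.37% of all rows, and 2 of the 3 (Slc2a1 and Slc16a3) also passed the fold limits, as did 5.43% of all rows in either direction. DESeq2 called 2 of the 37 members to which it gave an adjusted p, Slc2a1 and Slc16a3, against 2.38% of all rows, and limma called 0 of 42, against 0.112%. Of the members, 23 had a positive log2 fold change, against 43.8% of all rows, with a median of 0.11 against -0.09 for all rows. With library totals in place of the trimmed mean scaling, both medians moved up, to 0.38 and 0.14.

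The 3 members at an unadjusted p under 0.05 were Slc2a1, Pfkp and Slc16a3, and in each of them the 4 irradiated hearts lay above the 4 controls. Such a separation upwards was found for these 3 members and for 4.08% of all rows, and downwards for 0 members and 1.64% of all rows. Slc2a1 was picked out for follow-up by the study from these same libraries, so its values are not independent evidence.

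Slc2a1 (ENSMUSG00000028645, chr4:119108711-119137983, plus strand) was at 12.8, 11.0, 10.1 and 11.7 CPM in Control_6w. In IRR_6w it was at 15.97, 18.6, 62.2 and 44.4 CPM, with replicates 3 and 4 far above the other two. The log2 fold change was 1.63 (SE 0.39, edgeR adjusted p = 0.11). It was higher than every control in 4 of 4 irradiated hearts. The adjusted p was 0.00478 by DESeq2 and 0.241 by limma, and over all alternatives run it lay between 0.00478 and 0.677.

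The 2 IRR_6w libraries with the highest Slc2a1, replicates 3 and 4, are those with 21.6% and 8.62% of the low genes at 0 counts. In replicates 1 and 2, at 0.109% and 0%, it was lower, and in Control_1d replicate 1, at 30.7%, it was at 6.51 CPM, the lowest of the 14 libraries. The part of this share in the level of Slc2a1 was not tested. Without them and Control_1d replicate 1 the log2 fold change was 0.60 and the adjusted p 0.677 by edgeR, with IRR_6w replicates 1 and 2 still above the 4 controls. Without IRR_6w replicate 1, which held fat, lung and atrial transcripts, the log2 fold change was 1.87 with an adjusted p of 0.0356, and without the 3 Ucp1 libraries 1.82 with an adjusted p of 0.0516.

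Slc16a3 (ENSMUSG00000025161, chr11:120948480-120960868, plus strand) encodes MCT4, a carrier that exports lactate from glycolytic cells. It was at 1.44, 4.43, 1.48 and 0.807 CPM in Control_6w and at 5.34, 9.50, 20.3 and 12.9 CPM in IRR_6w. The groups did not overlap, and the log2 fold change of 2.56 (SE 0.80) had an edgeR adjusted p of 0.266. The controls rest on 12 to 58 counts per library. Without the 3 libraries with most genes at 0 counts the value was 1.87 (adjusted p = 0.555 by edgeR).

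Pfkp (ENSMUSG00000021196, chr13:6579768-6648777, minus strand) encodes the platelet form of phosphofructokinase, the enzyme of the committed step of glycolysis. It was at 41.4, 48.3, 63.9 and 56.6 CPM in Control_6w and at 75.8, 78.5, 132 and 117 CPM in IRR_6w. Here too replicates 3 and 4 were the highest, and the groups did not overlap. The log2 fold change was 0.94 (SE 0.26, edgeR adjusted p = 0.173), and it was 0.56 without the 3 libraries with most genes at 0 counts. DESeq2 gave an adjusted p of 0.0377, with a fold below the limit of 2. Pfkp shares 5.58% of its exonic bases with Pitrm1. The match of its transcript to 1 other gene and this overlap are equal in length. Overlapping genes were not left out of the search for copies, so that gene may be Pitrm1 itself. In raw counts, which are not levels comparable between genes, it had 287 to 852 per library, against 466 to 2475 for Pfkp. It was above Pfkp in Control_1d replicate 3 (698 and 689) and in IRR_1d replicates 1 (796 and 654) and 2 (611 and 466). It was also above Pfkp in Control_6w replicates 2 (660 and 632) and 4 (852 and 841), but in no IRR_6w library. How reads in the shared bases were counted is not given in the sources used here, so the level of Pfkp is uncertain. In addition, the strandedness of the counts is not given in the sources used here.

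**Figure D3:**
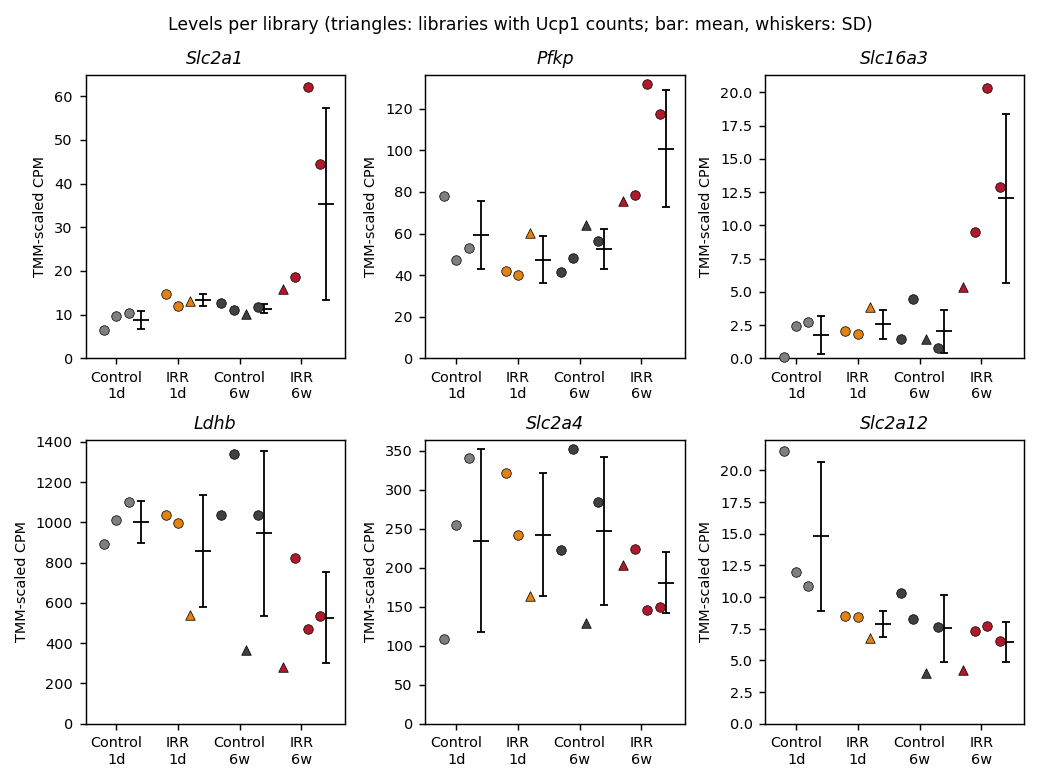
Each point is the CPM of 1 library, triangles are the 3 libraries with Ucp1, and the bar and whiskers are the mean and SD of the group. Slc2a1, Pfkp and Slc16a3 are higher in all 4 IRR_6w libraries than in the 4 Control_6w libraries, Ldhb, Slc2a4 and Slc2a12 overlap at 6 weeks, and the IRR_6w points of Slc2a1 range from 15.97 to 62.2 CPM.

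Sums of some cell type markers and the share of mitochondrial transcripts also separated the 6-week groups. The 7 macrophage and monocyte markers summed to 586, 625, 222 and 596 CPM in Control_6w and to 1022, 1303, 1146 and 1336 CPM in IRR_6w, with no overlap, and all 7 had positive fold changes, though 0 were DEGs by edgeR. The 7 cardiomyocyte markers all had negative fold changes and 0 were DEGs. Their sums overlapped, at 19398, 38680, 4570 and 33035 CPM in Control_6w and 8429, 26722, 13228 and 15449 CPM in IRR_6w. The 6 fibroblast markers summed to 926 to 2175 CPM in Control_6w and to 2320 to 3292 CPM in IRR_6w, also without overlap, and 5 of the 6 had positive fold changes with 0 DEGs. Mitochondrially encoded genes took 22.3% to 30.3% of the counts in Control_6w and 10.4% to 22.2% in IRR_6w. The part of these in the results for Slc2a1, Pfkp and Slc16a3 was not tested, except that scaling by library totals without the mitochondrially encoded genes gave log2 fold changes of 1.69, 0.98 and 2.65.

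The promoters of these 3 members are shown because the core motif of hypoxia-inducible factor, ACGTG or GCGTG on either strand, can be read in each, and Hif1a is itself a member. The sequences run from 250 bases before to 50 bases after the annotated start in RefSeq (GRCm38.p6), 5′ to 3′ on the strand of the gene, with the motif in capitals; CACGC is GCGTG on the opposite strand. They lie at chr4:119108495-119108794 (plus) for Slc2a1, chr11:120948817-120949116 (plus) for Slc16a3 and chr13:6648722-6649021 (minus) for Pfkp.
Slc2a1: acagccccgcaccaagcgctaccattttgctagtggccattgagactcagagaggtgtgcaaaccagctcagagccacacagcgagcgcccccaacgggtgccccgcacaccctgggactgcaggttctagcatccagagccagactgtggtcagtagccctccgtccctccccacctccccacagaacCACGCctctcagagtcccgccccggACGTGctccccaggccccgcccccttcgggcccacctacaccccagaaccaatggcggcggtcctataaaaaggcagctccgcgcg
Slc16a3: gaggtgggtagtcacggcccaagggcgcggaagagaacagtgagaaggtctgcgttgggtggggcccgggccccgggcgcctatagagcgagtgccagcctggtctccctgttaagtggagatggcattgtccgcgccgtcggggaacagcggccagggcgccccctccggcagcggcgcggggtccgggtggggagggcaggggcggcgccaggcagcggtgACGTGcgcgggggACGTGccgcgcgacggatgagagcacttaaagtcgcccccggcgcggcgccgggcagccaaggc
Pfkp: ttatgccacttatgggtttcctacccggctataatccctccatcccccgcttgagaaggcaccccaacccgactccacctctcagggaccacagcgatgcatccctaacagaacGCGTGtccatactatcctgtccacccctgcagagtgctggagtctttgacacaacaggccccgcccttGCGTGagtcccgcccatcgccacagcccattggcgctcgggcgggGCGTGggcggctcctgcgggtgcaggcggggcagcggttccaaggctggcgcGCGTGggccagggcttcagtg

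In Slc2a1 the matches started 61 and 36 bases before the transcription start, in Slc16a3 27 and 14 bases before it, and in Pfkp 136, 68 and 23 bases before and at base 30 after it. Of the 42 members, 40 had a promoter in the table. The motif was in 44 of their 59 promoters, against 43.8% of all 32851 promoters of this length, and in at least 1 promoter of 34 of the 40 genes, against 46.7% of 27025 genes. The motif ACGTG alone was in 19.6% of all promoters and GCGTG in 32.4%. The E-box CACGTG, which contains ACGTG, was in 7.15% of all promoters and in none of the 3 shown. Member promoters were not matched to the others for base composition, and a match is a description of the letters, not of binding.

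Hif1a, the oxygen-regulated subunit of that factor, was at 127, 56.6, 138 and 79.0 CPM in Control_6w and at 88.6, 106, 246 and 198 CPM in IRR_6w. The groups overlapped, and the log2 fold change was 0.67 (SE 0.38) at an adjusted p of 0.662 by edgeR. It turned to -0.04 without the 3 libraries with most genes at 0 counts, 2 of which are the highest here. Transcript levels of Hif1a do not show its activity, which is set mostly by protein stability.

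Ldhb was at 1037, 1339, 367 and 1036 CPM in Control_6w and at 281, 824, 468 and 534 CPM in IRR_6w. The lowest control was the library with thymus and fat transcripts, and the groups overlapped only through it. The log2 fold change was -0.84 (SE 0.40, edgeR adjusted p = 0.582). Ldha, the muscle form that favours lactate, had 766, 619, 619 and 542 CPM in Control_6w and 643, 697, 992 and 886 CPM in IRR_6w, with a log2 fold change of 0.34 (SE 0.23) and overlapping groups.

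Of the other members with the smallest p at 6 weeks, Slc2a3 had a log2 fold change of 1.06 (SE 0.63), Pfkfb3, the inducible PFK2 enzyme, 1.43 (SE 0.87), Pgam1 0.47 (SE 0.29), Mpc1 -0.49 (SE 0.30) and Mpc2 -0.52 (SE 0.32). None passed the test, with edgeR adjusted p-values of 0.688 to 0.704. Pfkfb3 turned to -0.03 without IRR_6w replicate 1, where it was at 227 CPM against 23.1 to 33.3 CPM in the other 3 irradiated hearts. Without the same library, Slc2a3 fell to 0.48 (SE 0.64) and Pgam1 to 0.24 (SE 0.29). Mpc1 was then at -0.40 and Mpc2 at -0.42. Slc2a4 had a log2 fold change of -0.45 (SE 0.37), and the 95% interval of -1.18 to 0.28 spans 0.

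By step, all 4 genes of pyruvate entry had negative values at 6 weeks (-0.52 to -0.17), as did all 4 glycogen genes (-0.52 to -0.00206), and all 4 pentose phosphate genes had positive values (0.25 to 0.82). The signs of the last 2 groups depended on single libraries. Without IRR_6w replicate 1, the values were -3.04 (SE 1.35) for Tkt, -0.95 (SE 0.68) for G6pdx, -0.37 (SE 0.42) for Taldo1 and -0.11 (SE 0.60) for Pgd, and Pygb, of the glycogen genes, was at 0.21 (SE 0.45). Without all 3 Ucp1 libraries, Control_6w replicate 3 among them, Tkt was at 0.21, G6pdx at 0.21, Taldo1 at 0.23, Pgd at 0.97 and Pygb at -0.12. The 7 genes of lower glycolysis had 4 positive and 3 negative values, and the 9 of upper glycolysis 5 and 4. Of these 5 steps, Pfkp was the one gene at an unadjusted p under 0.05, and no step held a DEG.

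Ratios within a library do not depend on the scaling between libraries. The Slc2a1 to Slc2a4 ratio of FPKM was 0.0568, 0.0311, 0.0776 and 0.0408 in Control_6w and 0.0780, 0.0826, 0.424 and 0.296 in IRR_6w. The groups did not overlap, but the highest control and the lowest irradiated heart, both libraries with Ucp1, were nearly equal, and the first 2 irradiated hearts were close to IRR_1d replicate 3 (0.0800). The Slc16a3 to Slc16a1 ratio was 0.00200 to 0.0125 in Control_6w and 0.0186 to 0.0358 in IRR_6w, also without overlap. Slc16a1 encodes MCT1, the main lactate carrier of heart muscle, and its own groups overlapped, with a log2 fold change of 0.13 (SE 0.39).

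The other ratios overlapped between the 6-week groups. The Ldha to Ldhb ratio was 0.350, 0.219, 0.801 and 0.248 in Control_6w and 1.09, 0.401, 1.00 and 0.787 in IRR_6w, and only Control_6w replicate 3 reached into the irradiated range. The Pfkp to Pfkm ratio ran from 0.0161 to 0.166 in Control_6w and from 0.0369 to 0.125 in IRR_6w. At 1 day, the Hk1 to Hk2 ratio was 0.299 to 0.359 in Control_1d and 0.382 to 0.585 in IRR_1d and did not overlap, while the log2 fold changes of Hk1 and Hk2 themselves did not pass the test. These ratios are a description and were not tested.

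**Figure D4:**
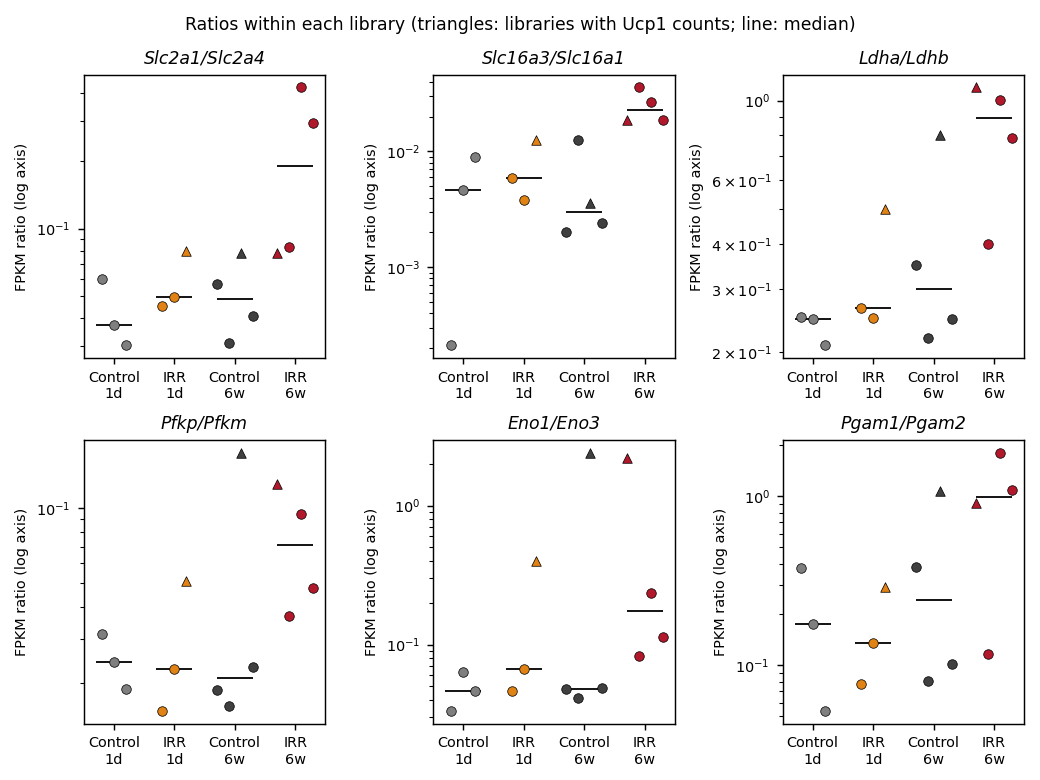
Each point is the FPKM ratio of a pair of isoform genes in 1 library on a log axis, triangles are the 3 libraries with Ucp1, and the line is the median of the group. Slc2a1/Slc2a4 and Slc16a3/Slc16a1 separate Control_6w from IRR_6w, and Eno1/Eno3 is above 2 in Control_6w replicate 3 (2.40) and IRR_6w replicate 1 (2.22).

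Several members set the 3 libraries with Ucp1 apart from the rest. Tkt was at 298, 820 and 1181 CPM in IRR_1d replicate 3, Control_6w replicate 3 and IRR_6w replicate 1, and at 15.8 to 41.8 CPM in the other 11. Eno1 was at 429, 820 and 979 CPM in the same order, above the 85.5 to 294 CPM elsewhere. G6pdx, the first enzyme of the pentose phosphate pathway, was at 36.6, 64.2 and 95.7 CPM and otherwise at 7.54 to 15.03. These libraries were the highest in all 3 genes, and Pgd and Pfkfb3 were also highest there.

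The muscle forms Eno3 and Pfkm were lowest in the same libraries. Eno3 was at 347, 110 and 143 CPM in IRR_1d replicate 3, Control_6w replicate 3 and IRR_6w replicate 1, against 403 to 1166 in the other 11, and Pfkm at 294, 96.0 and 151 CPM against 347 to 746. Pygm was set apart in only 2 of the 3, at 425, 108 and 176 CPM, against 362 to 927. Aldoa (900 and 872 CPM) and Pgam2 (123 and 42.5 CPM) were also the lowest of their groups in IRR_1d replicate 3 and Control_6w replicate 3, but not in IRR_6w replicate 1, where Aldoa was at 1378 CPM, above replicates 3 (896) and 4 (889), and Pgam2 at 78.2 CPM, above the same replicates (23.3 and 48.6). Of the 3 libraries, Control_6w replicate 3 and IRR_6w replicate 1 also had the lowest cardiomyocyte sums. The 3 libraries are 1 control and 2 irradiated hearts, and the part of other tissue in these levels was not tested. Without the 3 Ucp1 libraries, the groups at 6 weeks did not overlap upwards for 6 members (Eno1, Pfkp, Pgd, Pfkfb3, Slc2a1 and Slc16a3), against 9.81% of all rows, and downwards for 3 (Ldhb, Eno3 and Ldhd), against 8.84%. By edgeR without these libraries, 0 members were DEGs at 6 weeks, against 1.13% of all rows.

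Time in the unirradiated mice was compared between Control_6w and Control_1d, which are the controls of the comparisons above and so share samples with them. By edgeR 0 members were DEGs, as were 0% of all rows. DESeq2 called 0 of 38 members, against 0.167% of all rows, and limma 0, against 0%. At an unadjusted p under 0.05, 0 were higher and 2 lower (Gapdh and Slc2a12), against 3.54% and 1.75% of all rows, and Gapdh also passed the fold limits, as did 3.75%. Of the members, 25 had a positive log2 fold change, against 59.1% of all rows. Slc2a12 was at 10.8 to 21.5 CPM in Control_1d and at 3.98 to 10.3 CPM in Control_6w without overlap, and its log2 fold change was -0.97 (SE 0.41) at an adjusted p of 0.902 by edgeR, and -0.60 without Control_1d replicate 1. Without overlap were 1 member upwards (Ldha) and 2 downwards (Slc2a12 and Pfkfb1), against 3.39% and 2.53% of all rows. Without the 3 Ucp1 libraries these counts were 2 (Ldha and Slc2a1) and 2, against 6.69% and 4.81%. Tkt (3.36, SE 1.77) and Eno1 (1.35, SE 0.77) rested on Control_6w replicate 3, Gapdh (-3.14, SE 0.89) on Control_1d replicate 3, and Slc2a1 was at 0.37 (SE 0.41).

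Between the irradiated groups, 0 members were DEGs in IRR_6w against IRR_1d by edgeR, where 0.0374% of all rows were, 0.0312% as higher and 0.00624% as lower. Of the members, 25 had a positive log2 fold change, against 48.5% of all rows. Unadjusted, 6 were higher and 0 lower at a p under 0.05, against 4.2% and 1.59% of all rows. DESeq2 called 1 of 37 members (Pfkp), against 0.936% of all rows, and limma 0 of 42, against 0.0624%. The log2 fold changes were 1.09 (SE 0.29) for Pfkp, 1.40 (SE 0.42) for Slc2a1, 0.93 (SE 0.32) for Pgam1, 2.22 (SE 0.88) for Slc16a3 and 0.72 (SE 0.30) for Pfkl, the liver phosphofructokinase, with edgeR adjusted p-values of 0.405 to 0.811. The sixth was Ldha, at 0.53 (SE 0.25). The groups did not overlap upwards for 5 members (all of these but Pgam1), against 5.47% of all rows, and downwards for 0, against 3.84%. Without the 3 Ucp1 libraries these counts were 9 and 8, against 13.5% and 15.3% of all rows, with Slc2a4, Slc2a8, Slc2a12, Ldhb, Pdha1, Pygm, Mpc2 and Pfkfb1 lower. Of the 6, 3 (Pfkp, Slc16a3 and Slc2a1) also passed the fold limits, as did 3.85% of all rows. In the same comparison, the macrophage and monocyte markers summed to 545 to 700 CPM in IRR_1d and 1022 to 1336 CPM in IRR_6w, the endothelial markers to 1298 to 1430 and 1711 to 2400 CPM, and the T and B cell markers to 0.515 to 1.63 and 9.53 to 55.9 CPM, each without overlap. All 7 cardiomyocyte markers had negative fold changes, and mitochondrially encoded genes took 28.1% to 40.2% of the counts in IRR_1d against 10.4% to 22.2% in IRR_6w. The part of these in the values of the members was not tested.

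Whether the effect of irradiation differed between 1 day and 6 weeks was tested directly, and 0 members, as 0% of all rows, passed by edgeR. DESeq2 called 0 of 37 members, against 0.269% of all rows, and limma 0, against 0%. At an unadjusted p under 0.05, 2 members had a higher value at 6 weeks and 0 a lower one, against 2.13% and 1.01% of all rows, both past the fold limits, as were 2.86% of all rows. They were Pfkp, with a difference of log2 fold changes of 1.26 (SE 0.40, edgeR adjusted p = 0.990), and Gapdh, at 3.28 (SE 1.25), which turned to -0.0574 without Control_1d replicate 3. Of all members, 22 had a positive value, against 41.4% of all rows. Slc2a1 had a difference of 1.04 (SE 0.58, edgeR adjusted p = 0.990), so its larger value at 6 weeks was not shown to differ from that at 1 day.

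Of 50 further genes of glucose use, 46 were tested, and 0 were DEGs at 1 day or 6 weeks by edgeR. At an unadjusted p under 0.05, 1 was higher and 1 lower at 1 day, against 1.94% and 0.96% of all rows, and 4 were higher and 0 lower at 6 weeks, against 5.43% and 3.37%. The lower gene at 1 day was Pdk4, the kinase that switches off pyruvate dehydrogenase when fatty acids are burned. It was at 2044, 2101 and 920.3 CPM in Control_1d and at 444, 334 and 290.4 CPM in IRR_1d, with no overlap. Its log2 fold change was -2.24 (SE 0.43, edgeR adjusted p = 0.261), and DESeq2 gave an adjusted p of 4.28e-05. The 8 libraries of 6 weeks were at 304 to 795 CPM, below all 3 Control_1d libraries. Pdk4 is under hormonal and feeding control, and the feeding state of the mice was not given in the labels.

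Slc2a9, a urate and hexose transporter, was at 1.90 to 2.79 CPM in Control_6w and at 4.997 to 13.3 CPM in IRR_6w, and had log2 fold changes of 1.47 (SE 0.53) at 1 day and 1.68 at 6 weeks (edgeR adjusted p = 1 and 0.168). Bpgm, the red cell enzyme that makes 2,3-bisphosphoglycerate, was at -2.01 (SE 1.03) at 1 day and 2.45 (SE 0.90) at 6 weeks, with 0.62 at 6 weeks without IRR_6w replicate 1, and its 2 highest libraries, Control_1d replicate 3 (340 CPM) and IRR_6w replicate 1 (765 CPM), also had the highest sums of erythroid markers (33594 and 62863 CPM). In 25 refits each, under other settings or without some libraries, Slc2a9 was a DEG at 6 weeks in 2 and Bpgm at 1 day in 1. Slc2a6 had a log2 fold change of 3.02 at 6 weeks, from at most 1.08 CPM in Control_6w to 1.95 to 5.12 CPM in IRR_6w, with an edgeR adjusted p of 0.527.

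Of 22 genes of hypoxia and insulin signalling, all were tested and 0 were DEGs in either irradiation comparison by edgeR. At 1 day, 0 were higher and 1 lower at an unadjusted p under 0.05, against 1.94% and 0.96% of all rows, and at 6 weeks 3 were higher and 0 lower, against 5.43% and 3.37%. Positive values were found for 7 of the 22 at 1 day and 12 at 6 weeks, against 55.1% and 43.8% of all rows. The values named here are those of the 3 genes with the smallest p in each comparison. Tbc1d4, which holds back Slc2a4 until insulin acts, was at -0.80 at 1 day, Insr, the insulin receptor, at -0.48 and Akt2, the kinase between them, at 0.44. In Control_1d replicates 1 to 3, Tbc1d4 was at 217, 146 and 106 CPM, Insr at 230, 197 and 166, and Akt2 at 89.2, 169 and 184. Replicate 1, the library with the largest share of genes at 0 counts, was thus the extreme control for each. At 6 weeks Adm, the vasodilator peptide adrenomedullin and a textbook hypoxia target, was at 5.32, 9.93, 3.75 and 9.89 CPM in Control_6w and at 11.5, 23.0, 27.1 and 21.6 CPM in IRR_6w. The groups did not overlap, and its log2 fold change of 1.52 had an edgeR adjusted p of 0.139 and a DESeq2 adjusted p of 0.0106. Irs2, an insulin receptor substrate, was at 0.74, and Car9, a carbonic anhydrase and hypoxia target, at 2.13, with edgeR adjusted p-values of 0.395 and 0.532. Car9 was at 0.456, 0.306, 0.228 and 0.538 CPM in Control_6w and at 1.49, 0.782, 4.13 and 0.379 CPM in IRR_6w. These groups overlapped, and the value rests on few counts, with IRR_6w replicate 3 the highest.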

How the data were processed

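RNA of mouse heart tissue was sequenced in 14 libraries, 1 per mouse. Per the labels and the study's methods, the authors checked reads with FastQC (0.11.8), trimmed them with Trim Galore (0.6.1), aligned them with STAR (2.5.0a) to mm10 and counted them with HTSeq. The deposited values were whole-number counts per gene, not normalized, with coordinates and a gene length. Strandedness, the handling of reads that fit several genes and the annotation release are not given in the sources used here. Of the identifiers, 54409 were in GENCODE vM21 (GRCm38), and 42 of the 43 rows of the genes described had the same coordinates there. The table held 0 columns of unknown samples.

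From the counts, filterByExpr, TMM scaling and the quasi-likelihood test of edgeR (4.0.16, R 4.3.3) were run over all 14 libraries in 1 model of 4 groups, with Benjamini-Hochberg adjustment over all rows tested. CPM were scaled by TMM, and FPKM were these values divided by the deposited length in kilobases. Calls needed a fold change above 2 or below 0.5 and an adjusted p under 0.05. The edgeR p-values weigh a difference between groups against the spread between mice within groups, estimated over all 4 groups together. Alternatives were DESeq2 (1.42.0), limma with voom (3.58.1), other scalings, no filter, a replicate block and leaving out libraries. Leaving out the libraries with Ucp1 or with most genes at 0 counts, counting separated groups under other settings, and FPKM ratios by transcript length were chosen after seeing the data. The steps were tested on simulated data. Gene copies were sought in GENCODE transcripts at 98% identity over 150 bases, and genes that overlap a member were not left out of this search.

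The members and gene lists were chosen with earlier results of these data known. Fold changes are given for the 10 members with the smallest p in each irradiation comparison, 5 in each time comparison and 3 in the change of effect, for Slc2a1 throughout, and for 3 genes of each further list in each irradiation comparison. Aldoc, which this rule takes in 2 comparisons, is the exception, since it had too few counts for a fold change. Values outside this rule, such as those of Ldha, Slc2a4, Slc16a1, G6pdx, Eno3, Pfkm, Pygm, Aldoa and Pgam2, were chosen after they were seen.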

Additional observations from a re-analysis of the deposited data

Results flagged for a closer look

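In 14 of 84 groups of 4 libraries tested (42 genes in Control_6w and IRR_6w), the highest or lowest library lay apart from the other 3 by more than a test for single outlying values allows, where chance gives about 1 in 20. This is 16.7% of the groups, against 12.5% over all rows tested by the same rule, so it is not a result about the members. Control_6w replicate 3 was the outlying library for 13.1% of all rows in its group and IRR_6w replicate 1 for 4.8%. All values are in CPM. In Control_6w replicate 3, which held Ucp1, white fat and thymus transcripts, the outlying values were those of Tkt (820), Eno1 (820), Taldo1 (225), Pgd (145), Gbe1 (140), Pfkfb3 (75.9), G6pdx (64.2) and Aldoc (1.14). In IRR_6w replicate 1, which held Ucp1, white fat, lung and atrial transcripts, they were those of Tkt (1181), Eno1 (979), Pfkfb3 (227) and G6pdx (95.7). Each of these 12 values was the highest of its group. In Control_6w replicate 1, Pdhb was the highest of its group at 1206, where the next was 706, and Pfkfb1 the lowest at 3.95, where the next was 6.11.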

How the results depend on the processing

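The 46 named fold changes include those of Aldoc, which are not printed. None of the 46 passed the threshold by edgeR on all libraries, so none could lose it. In 1136 refits, 16 passed it and 5 reversed. The other 1115 had the same direction and did not pass, which does not mean that their size held: Slc2a1 at 6 weeks went from 1.63 to 0.60 without the 3 libraries with most genes at 0 counts. The reversals were Gapdh without Control_1d replicate 3 (0.29 at 1 day, 0.18 between the controls and -0.0574 for the change of effect), Pfkfb3 at 6 weeks without IRR_6w replicate 1 (-0.0346), and Hif1a at 6 weeks without the 3 libraries with most genes at 0 counts (-0.0375). Over all single libraries left out, Gapdh ranged from -3.59 to 0.29 at 1 day, -3.70 to 0.18 between the controls and -0.0574 to 3.82 for the change of effect, and Pfkfb3 from -0.0346 to 2.57 at 6 weeks. The cause was not tested.

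The count of members called at 6 weeks was 0 by edgeR, but 2 by DESeq2 on all libraries and 2 by DESeq2 on the 2 groups compared (Slc2a1 and Slc16a3 in both, against 2.38% and 2.24% of all rows), and 1 (Slc2a1) without the 2 libraries with thymus or lung transcripts, against 0.872%. Between the irradiated groups it was 1 (Pfkp) by DESeq2 on all libraries and 2 (Pfkp and Slc16a3) by DESeq2 on the 2 groups, against 0.936% and 2.35%. DESeq2 called 328 of all genes at 6 weeks, where edgeR called 41. Leaving out single libraries gave 0 to 1 members at 6 weeks, the 1 being Slc2a1 without IRR_6w replicate 1, and 0 in the other comparisons. Of all rows, 0.627% were called at 6 weeks without IRR_6w replicate 1, and 0% to 0.378% without any other single library. In the other comparisons the share was 0% to 0.231%. With the fold limits and an unadjusted p under 0.05, the counts were 1 at 1 day, 2 at 6 weeks, 1 between the controls, 3 between the irradiated groups and 2 for the change of effect. The shares of all rows were 2.23%, 5.43%, 3.75%, 3.85% and 2.86% in the same order.

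Without the 3 Ucp1 libraries, members with separated groups numbered 2 higher and 2 lower at 1 day, against 9.82% and 6.46% of all rows. At 6 weeks 6 were higher and 3 lower, against 9.81% and 8.84%. Between the controls 2 were higher and 2 lower, against 6.69% and 4.81%. Between the irradiated groups 9 were higher and 8 lower, against 13.5% and 15.3%. With library totals in place of TMM, 0 were lower between the controls, against 1.03% of all rows. Under that scaling, fold changes over all genes were higher in the median: the shift in log2 was 0.08 in hearts of 1 day, 0.23 in those of 6 weeks, 0.16 for the controls, 0.32 for the irradiated groups and 0.16 for the change of effect.

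The replicate block called 0 members in each of the 5 comparisons, and moved the count over all genes from 41 to 15 at 6 weeks. Samples share only a number: deviations of same-numbered samples correlated at -0.26 to 0.09 at 1 day and -0.40 to 0.51 at 6 weeks.

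Genes at a few CPM, such as Slc16a3 and Slc2a3, rest on few counts, and a count of 0 says little in the 3 libraries where many low genes were at 0.

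With transcript lengths in place of the deposited lengths, the median over the libraries moved from 0.357 to 0.657 for the Hk1 to Hk2 ratio and from 0.0278 to 0.0774 for Pfkp to Pfkm. The other 8 ratios moved by less than 1 SD over the libraries, an SD that includes the libraries with Ucp1. Among them, the median of Eno1 to Eno3 moved from 0.0649 to 0.155, and its highest value from 2.40 to 5.73. The median of Pfkl to Pfkm moved from 0.0724 to 0.112, and that of Ldha to Ldhb from 0.308 to 0.467.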
